A study of Mus musculus with 17 samples.

Results

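The Hox genes are a family of homeobox transcription factors that lie in 4 genomic clusters, and they are described here in 17 mouse RNA-seq samples. The members were chosen by name alone, as all gene symbols made of Hox, a cluster letter and a position number. This gave 39 genes with 45 RefSeq transcripts among 23891 genes and 32661 transcripts, and for each gene the transcript with the highest mean level over the 17 samples was used. All 39 enter the counts below, and no filter on low values was applied.

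Hox proteins bind DNA together with the Pbx, Meis and Pknox cofactors and give cells of the embryo their position along the head-to-tail axis. Genes at the 3′ end of a cluster (low numbers) act in the head and neck, and genes at the 5′ end (high numbers) act in the trunk, the limbs and the genital region. Polycomb complexes keep the clusters silent in pluripotent cells, whereas trithorax proteins such as Kmt2a keep them active in differentiated cells, which thus carry a memory of where in the body they came from.

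The cells were 4 lines of spermatogonial stem and progenitor cells (SSC), 6 lines of multipotent adult spermatogonial-derived stem cells (MASC), 2 embryonic stem cell (ESC) lines, 2 induced pluripotent stem (iPS) cell lines, 2 cultures of haematopoietic stem and progenitor cells (HSC) and 1 sample of mouse embryonic fibroblasts (MEF). SSC lines came from testes of adult mice and were grown on MEF feeders in medium with 10 ng/ml GDNF, and residual feeders were left to attach to gelatin for 2 h before collection. SSC.1 and SSC.2 carry the Oct4-GFP background, SSC.3 is C57Bl/6J and SSC.4 is 129mix. MASC lines arose when SSC cultures converted after long expansion, and they were picked as single colonies. MASC.1 and MASC.2 carry Oct4-GFP, MASC.3 and MASC.4 are 129mix, and MASC.5 and MASC.6 are Gt(ROSA26)Sor-lacZ. ESC.1 is Oct4-GFP and ESC.2 is 129mix. The iPS lines (129mix) were made from E13.5 MEF that carry a tetO-4F2A cassette, with 2 µg/ml doxycycline. MASC, ESC and iPS lines were grown on MEF feeders with LIF and collected within 20 passages, and no step to remove the feeders is described for them. HSC cultures were lineage-negative C57Bl/6J bone marrow cells grown on human E4ORF1-HUVEC endothelial feeders with Kit ligand. The MEF sample (129mix) was grown without feeders. The sources do not say which MASC line arose from which SSC line, so the p-values below measure only the spread between these lines.

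Levels are FPKM, in which the fragments of a transcript are divided by its length and by the size of the library, so they can be compared between genes. At 1 FPKM a transcript had between 1.26 and 3.23 reads per base, and a level near 0.1 FPKM therefore rests on few reads. Values printed in exponent form are Cufflinks estimates close to 0 for the transcript used. Among the Hox genes they occur in Hoxa9, Hoxa10 and Hoxd8, which have 2, 2 and 3 transcripts. Reads that Cufflinks gave to another transcript of the gene are not in such a value, so it does not show that the gene had no reads. The summed level of 8 pluripotency genes was between 1869 and 3059 FPKM in MASC, ESC and iPS lines and between 22.9 and 129 FPKM in SSC lines, where SSC.1 was the highest with Pou5f1 at 94.5 FPKM. The sum of 8 spermatogonial genes was between 566 and 751 FPKM in SSC lines and at most 169.9 elsewhere. Not every gene of this list followed its sum. Etv5 was at 17.2, 123, 45.0 and 11.4 FPKM in SSC.1 to SSC.4 and between 81.1 and 128 in MASC lines. Gfra1 was at 35.5 FPKM in MEF and at most 31.7 in SSC lines. The sum of 10 blood genes was 12133 and 9056 FPKM in HSC.1 and HSC.2 and at most 72.8 elsewhere. Most of the blood sum was Cpa3, a mast cell gene, at 10252 and 6795 FPKM, while Gata2 was at 495 and 375 and Tal1 at 39.5 and 28.9. Markers of somatic testis cells (9 genes) summed to 28.8 to 36.3 FPKM in SSC lines and 21.9 to 92.01 in MASC lines, where Acta2 alone gave 11.5 to 79.5. Single members of this list went the other way. Wt1, a Sertoli cell gene, was at 20.9, 8.17, 14.3 and 13.3 FPKM in SSC.1 to SSC.4 and at most 4.41 in MASC lines, without overlap. Sox9 was at 1.75, 12.4, 3.23 and 9.56 FPKM in SSC lines and at most 3.24 in MASC lines, whereas Amh and Cyp17a1 were at most 0.817 and 0.0317 FPKM in SSC lines. A sum of 11 fibroblast markers, among them Col1a2, Dcn and Prrx1, differed between lines of one type. It was 6.37%, 0.523%, 14.0% and 2.14% of the MEF sum in SSC.1 to SSC.4. In MASC.1 it was 15.7% and in the other MASC lines between 0.424% and 2.13%. It was 6.16% in ESC.1, 1.28% in ESC.2, 0.190% and 0.708% in the iPS lines, 2.86% in HSC.1 and 16.3% in HSC.2. Fibroblasts express Hox genes, so these values are given again where a line with many fibroblast transcripts carries a result. In such bulk samples a smaller share of cells that express a gene and less RNA per cell cannot be told apart.

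In the mm9 build the Hoxa genes lie on chromosome 6 on the minus strand, and the other clusters lie on the plus strand. The Hoxb genes span chr11:96055675-96229567, the Hoxc genes chr15:102751562-102867283 and the Hoxd genes chr2:74506367-74603199. The clusters, from Hoxa to Hoxd, hold 11, 10, 9 and 9 of the 39 members. The transcribed loci of Hoxa3 and of Hoxd3 overlap their neighbours (Hoxa4, Hoxa5 and Hoxa6, and Hoxd4), and the strand setting of the counting is not stated, so reads in those overlaps cannot be assigned to one gene with certainty.

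The RefSeq promoter table (build GRCm38.p6) held 22 of the 39 genes. The 250 bases before the start site are shown for Hoxb8, Hoxb4 and Hoxc4, which fell between SSC and MASC lines, and for Hoxb1, a member of the Hoxb cluster that did not. Capitals mark the CG dinucleotides, the sites of DNA methylation. Each sequence is on the plus strand, was found once in its mm9 chromosome and ends 1 base before the transcript start in the deposited tables. Hoxb8 lies at chr11:96142969-96143218, Hoxb4 at chr11:96179331-96179580, Hoxb1 at chr11:96226822-96227071 and Hoxc4 at chr15:102864576-102864825.
Hoxb8: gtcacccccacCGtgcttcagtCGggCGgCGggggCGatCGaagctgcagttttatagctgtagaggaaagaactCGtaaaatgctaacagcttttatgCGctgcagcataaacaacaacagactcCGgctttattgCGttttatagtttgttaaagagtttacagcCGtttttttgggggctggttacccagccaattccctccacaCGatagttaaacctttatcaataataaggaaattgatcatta
Hoxb4: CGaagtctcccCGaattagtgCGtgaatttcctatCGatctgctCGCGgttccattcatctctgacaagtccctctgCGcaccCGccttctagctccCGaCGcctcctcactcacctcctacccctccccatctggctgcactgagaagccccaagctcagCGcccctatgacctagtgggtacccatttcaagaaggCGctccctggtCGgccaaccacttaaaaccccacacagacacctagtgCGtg
Hoxc4: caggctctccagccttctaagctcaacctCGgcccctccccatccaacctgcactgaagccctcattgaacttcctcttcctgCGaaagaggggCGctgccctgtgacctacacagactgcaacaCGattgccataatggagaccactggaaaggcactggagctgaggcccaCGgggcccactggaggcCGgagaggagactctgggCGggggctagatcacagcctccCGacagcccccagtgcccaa
Hoxb1: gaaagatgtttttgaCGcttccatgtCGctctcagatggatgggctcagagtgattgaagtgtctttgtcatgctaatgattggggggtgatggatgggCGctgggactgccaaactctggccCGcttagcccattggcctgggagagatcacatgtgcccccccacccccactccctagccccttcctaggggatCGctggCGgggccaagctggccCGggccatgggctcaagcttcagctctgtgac

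The windows held 12 CG dinucleotides in Hoxb8, 14 in Hoxb4, 8 in Hoxc4 and 7 in Hoxb1. The median was 12.5 over the 24 Hox windows and 6 over all 32851 windows of the table. The 4 motifs named next were searched on both strands. TTTATG, a core sequence bound by Cdx and posterior Hox proteins, was found in Hoxb8 and not in the other 3 windows. It occurred in 5 of the 24 Hox windows and in 10.8% of all windows. TGATNNAT, a core sequence of joint Pbx and Hox binding, was found in Hoxb8 and Hoxb1, in 4 Hox windows and in 7.68% of all windows. TATAAA was found in Hoxb8 only among the 4, in 4 Hox windows and in 12.4% of all windows. CCAAT was found in Hoxb8 and Hoxb1, in 14 Hox windows and in 33.8% of all windows. The 3 windows of genes that fell thus shared no motif among those searched. A match in these letters is a description and not evidence of a bound site.

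SSC lines expressed the Hoxb genes and part of the Hoxc genes, and this expression was low in MASC, ESC and iPS lines. The summed level of the 39 genes was 112, 282, 41.4 and 143 FPKM in SSC.1 to SSC.4. It was between 6.86 (MASC.4) and 43.1 FPKM (MASC.6) in the MASC lines, 10.6 and 8.04 in the ESC lines, 3.12 and 8.57 in the iPS lines, 5.28 and 41.0 in the HSC cultures and 144 in MEF. The lowest SSC line (SSC.3) and the highest MASC line (MASC.6) overlapped in this sum. Hoxb genes gave 88.4, 148, 22.1 and 103 FPKM of it in the SSC lines, more than any other cluster in each of the 4.

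**Figure D1:**
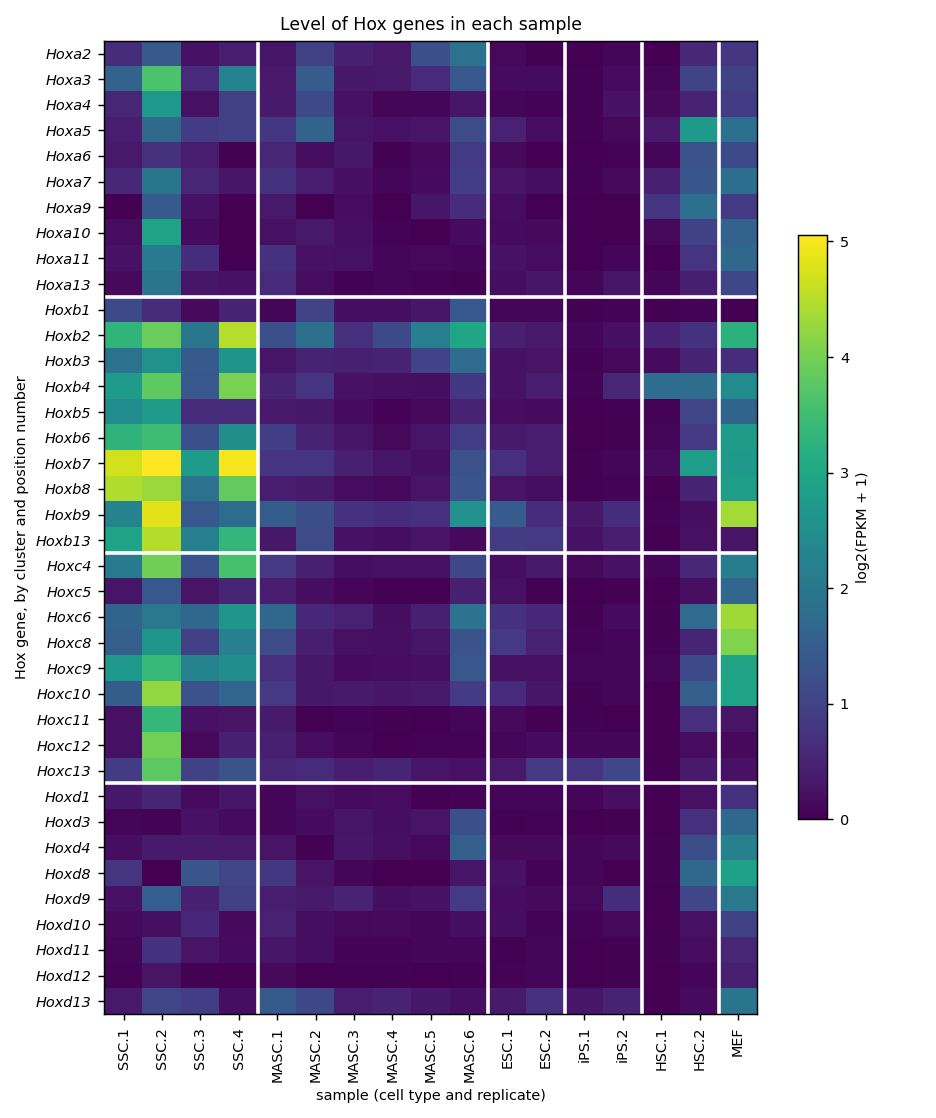
Level of 38 Hox genes (rows, by cluster and position number) in each of the 17 samples (columns), as log2(FPKM + 1) in colour. The bright block is the Hoxb and Hoxc genes in the SSC lines. SSC.2 adds posterior Hoxa and Hoxc genes, and MEF has its highest levels in Hoxb9, Hoxc6 and Hoxc8.

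A gene was taken as detected in a cell type when the lower confidence bound that Cufflinks gave was above 0 in every sample of that type. On this measure 31 of the 39 genes were detected in SSC lines, 23 in MASC, 25 in ESC, 10 in iPS and 8 in HSC samples and 37 in the MEF sample. The rule is stricter for a type with more samples, so these counts do not rank the types. Single samples had a bound above 0 for 34 to 37 genes in SSC lines and 28 to 39 in MASC lines. The ESC lines had 30 and 27, the iPS lines 11 and 22 and the HSC cultures 8 and 36. At a level of 1 FPKM or more in every sample the counts were 12 in SSC, 0 in MASC, 0 in ESC, 0 in iPS, 1 in HSC and 24 in MEF. Over all 32661 transcripts, between 13532 (HSC.1) and 16272 (SSC.3) were at 1 FPKM or more in a single sample. The 12 genes of the SSC lines were Hoxb2, Hoxb3, Hoxb4, Hoxb6, Hoxb7, Hoxb8, Hoxb9, Hoxb13, Hoxc4, Hoxc6, Hoxc9 and Hoxc10. Hoxd1, Hoxd10, Hoxd11 and Hoxd12 stayed under 1 FPKM in all 17 samples, and their highest values were 0.604 FPKM for Hoxd1, 0.998 for Hoxd10 and 0.353 for Hoxd12, all in MEF, and 0.660 for Hoxd11 in SSC.2.

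The comparison of MASC with SSC lines shows which Hox genes differ between SSC lines and the multipotent lines derived from such cells. Of the 39 genes, 12 were lower in MASC lines and 0 were higher (limma on log2(FPKM + 1), fitted to the 12 lines of SSC, MASC and ESC, with a Benjamini-Hochberg adjusted p under 0.05 over all 32661 transcripts and a log2 difference of at least 1). They are 30.8% of the members, and 9.60% of all transcripts were called lower and 6.04% higher. The calls fell in 2 clusters. They were Hoxb2, Hoxb3, Hoxb4, Hoxb5, Hoxb6, Hoxb7, Hoxb8 and Hoxb13, 8 of the 10 Hoxb genes, and Hoxc4, Hoxc8, Hoxc9 and Hoxc10, 4 of the 9 Hoxc genes. None of the 11 Hoxa and 9 Hoxd genes was called, although 1 in each cluster had an unadjusted p under 0.05 (Hoxa3 and Hoxd1). All 16 genes with an unadjusted p under 0.05 were lower in MASC lines.

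By position, 2 of 8 genes numbered 1 to 3, 7 of 15 genes numbered 4 to 8 and 3 of 16 genes numbered 9 to 13 were called lower. The median log2 difference was -0.65 over the 39 genes, against -0.0048 over all transcripts. It was -0.43 for Hoxa, -1.93 for Hoxb, -1.24 for Hoxc and -0.064 for Hoxd genes. For 10 genes every MASC line was below every SSC line, which held for 15.4% of all transcripts. For 0 genes every MASC line was above every SSC line, against 9.91% of all transcripts. The 10 genes were Hoxb4, Hoxb5, Hoxb6, Hoxb7, Hoxb8, Hoxb13, Hoxc4, Hoxc9, Hoxc10 and Hoxc13, and each had an exact permutation p of 0.00476 (two-sided), the smallest that 6 lines against 4 can give.

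**Figure D2:**
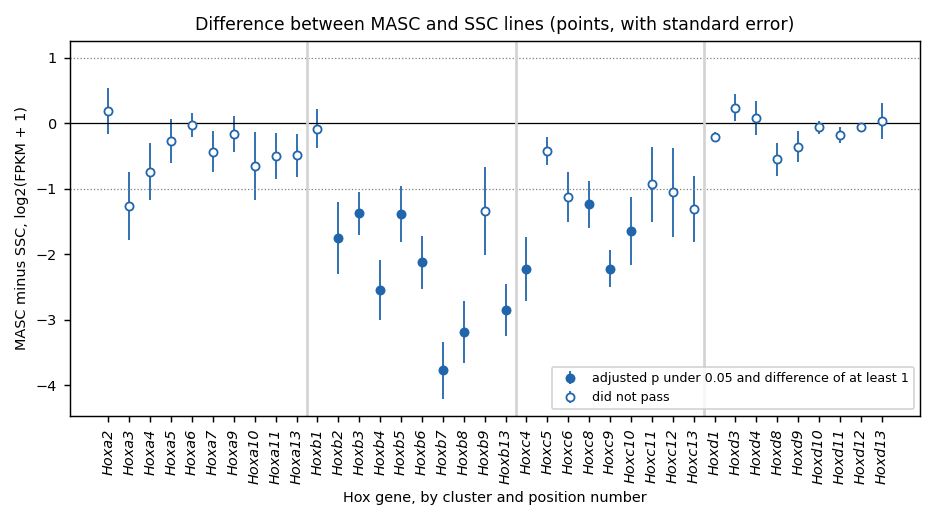
Difference of the MASC and SSC group means on log2(FPKM + 1) for 38 Hox genes, with the standard error (bars). Filled points are the 12 genes called lower in MASC, all of them Hoxb or Hoxc genes, and Hoxb7 lies lowest at -3.77. Dotted lines mark a difference of 1 in each direction.

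Hoxb7, a trunk gene, had the highest level of any Hox gene in the SSC lines. It read 25.2, 32.2, 5.96 and 30.8 FPKM in SSC.1 to SSC.4, and the MASC lines lay between 0.147 and 1.37 FPKM (median 0.529). All SSC lines stood above all MASC lines and above the MEF sample at 5.52 FPKM. The ESC lines had 0.634 and 0.301, the iPS lines 0.0145 and 0.0665 and the HSC cultures 0.115 and 6.01 FPKM, so that HSC.2 resembled MEF and HSC.1 did not. Hoxb7 fell by 3.77 ± 0.43 (standard error) on the log2 scale in MASC lines (limma adjusted p = 1.38e-04).

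Its neighbour Hoxb8, used experimentally to keep blood progenitors dividing, was likewise higher in every SSC line than in every MASC line. The SSC lines had 20.9, 18.7, 2.76 and 13.4 FPKM and the MASC lines lay between 0.0747 and 1.51 FPKM (median 0.248). The highest MASC line was MASC.6, and the next reached 0.302. ESC lines held 0.197 and 0.132, iPS lines 0.0158 and 0.0279, HSC cultures 0.00626 and 0.401 and MEF 6.14 FPKM. The log2 difference between MASC and SSC was -3.19 ± 0.47 (limma adjusted p = 6.89e-04).

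Hoxb13, the most 5′ gene of the cluster and known from the prostate and hindgut, was an SSC gene with almost no MEF expression. SSC.1 to SSC.4 read 6.59, 21.2, 3.52 and 9.15 FPKM against 0.198 FPKM in MEF. Every SSC line was thus far above the fibroblast sample. The MASC lines lay between 0.0856 and 1.23 FPKM (median 0.194), and the highest, MASC.2, stood apart from the next at 0.246 FPKM. ESC lines kept 0.864 and 0.785, iPS lines 0.181 and 0.336 and HSC cultures 0 and 0.173 FPKM. It differed by -2.85 ± 0.39 on the log2 scale between MASC and SSC (limma adjusted p = 4.35e-04).

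Hoxb4, which can expand haematopoietic stem cells when overexpressed, was present in SSC lines and HSC cultures alike. The SSC lines read 5.91, 12.9, 1.59 and 15.4 FPKM and the MASC lines lay between 0.142 and 0.773 FPKM (median 0.305). HSC.1 and HSC.2 had 2.495 and 2.57 FPKM, the only member at 1 FPKM or more in both HSC cultures. ESC lines had 0.194 and 0.308, iPS lines 0.0373 and 0.451 and MEF 4.39 FPKM. The groups of SSC and MASC lines did not overlap, with a log2 difference of -2.54 ± 0.46 (limma adjusted p = 0.00222).

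Hoxb6, a thoracic gene, had 8.79, 10.2, 1.34 and 4.66 FPKM in SSC.1 to SSC.4 and lay between 0.0815 and 0.919 FPKM (median 0.315) in the MASC lines. MASC.1, with the most fibroblast transcripts of the 6, had its highest MASC level. In ESC lines it read 0.292 and 0.308, in iPS lines 0 and 0.0158, in HSC cultures 0.0546 and 0.788 and in MEF 5.94 FPKM. The log2 difference was -2.12 ± 0.40 (limma adjusted p = 0.00303). Hoxb5 followed with 4.42, 5.92, 0.567 and 0.558 FPKM in the SSC lines, where SSC.1 and SSC.2, both Oct4-GFP, stood above SSC.3 and SSC.4. Its MASC lines lay between 0.0323 and 0.421 FPKM (median 0.181). ESC lines had 0.116 and 0.108, iPS lines 0.00912 and 0.0210, HSC cultures 0.0361 and 1.07 and MEF 2.11 FPKM. It differed by -1.38 ± 0.42 (limma adjusted p = 0.0327). Within the Oct4-GFP lines the difference was -2.27 and within the 129mix lines -0.55. The call for Hoxb5 was lost without SSC.1 (limma adjusted p = 0.0937), without SSC.2, without any 1 of MASC.1 to MASC.5 and with the replicate block, with a limma adjusted p of at most 0.117 over all alternatives.

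The 2 anterior genes of the cluster that were called, Hoxb2 and Hoxb3, act in the hindbrain. Hoxb2 read 8.91, 14.0, 2.95 and 21.6 FPKM in SSC.1 to SSC.4, and its MASC lines lay between 0.610 and 6.83 FPKM (median 2.01). Here the groups overlapped, since MASC.5 at 3.46 and MASC.6 at 6.83 FPKM, both Gt(ROSA26)Sor-lacZ lines, were above SSC.3. Hoxb2 was also the highest Hox gene of MASC.2, MASC.4, MASC.5 and MASC.6. ESC lines had 0.367 and 0.275, iPS lines 0.0557 and 0.154, HSC cultures 0.407 and 0.675 and MEF 8.30 FPKM. The log2 difference was -1.75 ± 0.55 (limma adjusted p = 0.0362). The call was lost when any of 7 lines was left out (SSC.1, SSC.2, SSC.4 or MASC.1 to MASC.4), with the direction kept. Hoxb3 had 2.69, 4.90, 1.70 and 5.13 FPKM in SSC lines and lay between 0.227 and 2.38 FPKM (median 0.411) in MASC lines. MASC.6 again exceeded SSC.3. ESC lines had 0.181 and 0.203, iPS lines 0.0173 and 0.0801, HSC cultures 0.114 and 0.413 and MEF 0.567 FPKM, so that all SSC lines were above the fibroblast sample. It differed by -1.37 ± 0.33 (limma adjusted p = 0.0106).

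Hoxb9 and Hoxb1 were the Hoxb genes that did not pass. Hoxb9, a gene of the thoracic trunk, read 3.80, 27.3, 1.57 and 2.44 FPKM in the SSC lines, and SSC.2 was far above the others. Its MASC lines lay between 0.561 and 4.87 FPKM (median 0.995), so MASC.6 exceeded 3 of the 4 SSC lines. ESC lines had 1.72 and 0.566, iPS lines 0.245 and 0.576 and HSC cultures 0.0333 and 0.147 FPKM, while MEF had 19.5 FPKM, its highest Hox level. The log2 difference between MASC and SSC was -1.33 ± 0.67 (limma adjusted p = 0.172). Hoxb1, an early hindbrain gene, had 1.20, 0.583, 0.0993 and 0.420 FPKM in SSC lines and lay between 0.0560 and 1.64 FPKM (median 0.187) in MASC lines. MASC.6 was above all SSC lines, and MASC.2 was above 3 of them. ESC lines had 0.0465 and 0.0484, iPS lines 0.0258 and 0.0300, HSC cultures 0 and 0.0284 and MEF 0.00713 FPKM. Its log2 difference was -0.083 ± 0.30 (limma adjusted p = 0.930).

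**Figure D3:**
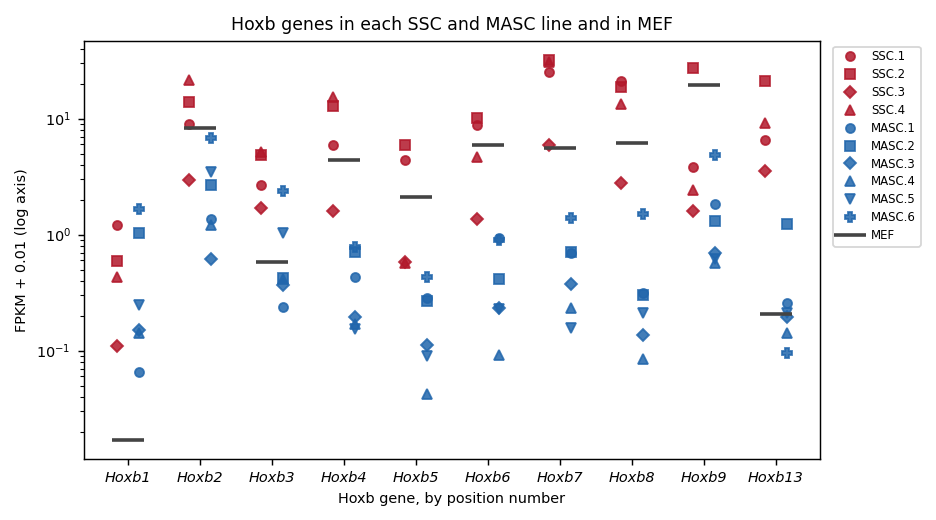
FPKM + 0.01 (log axis) of the 10 Hoxb genes in each SSC line (red), each MASC line (blue) and MEF (black bar). For Hoxb4 to Hoxb8 and Hoxb13 every red point lies above every blue point. SSC.3 is the lowest SSC line for all but Hoxb5 and MASC.6 the highest MASC line for 8 of the 10.

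In the Hoxc cluster the called genes were Hoxc4, Hoxc8, Hoxc9 and Hoxc10, which act in the neck, the brachial, the thoracic and the lumbar trunk respectively. Hoxc9 read 5.50, 9.47, 3.77 and 4.55 FPKM in SSC.1 to SSC.4 and lay between 0.110 and 1.60 FPKM (median 0.208) in MASC lines, without overlap. ESC lines had 0.173 and 0.167, iPS lines 0.0458 and 0.0702, HSC cultures 0.0604 and 1.18 and MEF 6.77 FPKM. It fell by 2.22 ± 0.29 on the log2 scale (limma adjusted p = 2.96e-04). Hoxc4 had 3.22, 14.6, 1.43 and 11.03 FPKM in SSC lines, with SSC.2 and SSC.4 the highest, and lay between 0.139 and 1.11 FPKM (median 0.272) in MASC lines. ESC lines had 0.135 and 0.272, iPS lines 0.0781 and 0.181, HSC cultures 0.0515 and 0.497 and MEF 3.44 FPKM. The difference was -2.23 ± 0.49 (limma adjusted p = 0.00665).

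Hoxc10 was called, but 1 line carried much of the difference. SSC.1 to SSC.4 read 1.82, 17.8, 1.40 and 2.14 FPKM and the MASC lines lay between 0.235 and 0.862 FPKM (median 0.278). ESC lines had 0.537 and 0.228, iPS lines 0.0271 and 0.0519, HSC cultures 0 and 1.90 and MEF 6.67 FPKM. The log2 difference was -1.65 ± 0.52 (limma adjusted p = 0.0377) and -0.96 without SSC.2 (limma adjusted p = 0.00329), under the required size. The call was also lost without any 1 of the 6 MASC lines, and the limma adjusted p reached at most 0.168 over all alternatives. Hoxc8 read 1.89, 5.37, 0.955 and 3.59 FPKM in SSC lines and lay between 0.155 and 1.46 FPKM (median 0.283) in MASC lines, where MASC.6 and MASC.1 overlapped with SSC.3. ESC lines had 0.791 and 0.381, iPS lines 0.0321 and 0.0431, HSC cultures 0.0142 and 0.442 and MEF 16.003 FPKM. It differed by -1.24 ± 0.36 (limma adjusted p = 0.0266), and the call was lost without SSC.2, SSC.4, MASC.3, MASC.4 or MASC.5.

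Hoxc6, a gene of the upper thorax and the second highest Hox gene of MEF at 19.2 FPKM, missed the threshold. SSC lines read 2.10, 3.03, 2.22 and 5.40 FPKM, and MASC lines lay between 0.144 and 2.79 FPKM (median 0.440). Its highest MASC lines were MASC.6, at 1.15% of the MEF fibroblast sum, and MASC.1, at 15.7%. ESC lines had 0.643 and 0.479, iPS lines 0.0148 and 0.102 and HSC cultures 0.0220 and 2.41 FPKM. The log2 difference was -1.12 ± 0.38 (limma adjusted p = 0.0509). Hoxc5 was low throughout, with 0.223, 1.59, 0.206 and 0.440 FPKM in SSC lines, at most 0.367 FPKM in MASC lines (lowest 0.00888, median 0.0956) and 2.16 FPKM in MEF. ESC lines had 0.164 and 0.0212, iPS lines 0.0122 and 0.0211 and HSC cultures 0.0121 and 0.152 FPKM.

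The posterior Hoxc genes set 1 SSC line apart from the rest. Hoxc12 read 0.170, 14.7, 0.0810 and 0.369 FPKM in SSC.1 to SSC.4, Hoxc11 0.178, 9.24, 0.182 and 0.199 FPKM, and Hoxc13, known for its part in hair formation, 0.859, 12.8, 0.981 and 1.499 FPKM. In each of the 3 genes SSC.2 was the highest of all 17 samples. The MEF sample had 0.197, 0.0938 and 0.180 FPKM of Hoxc11, Hoxc12 and Hoxc13, far below SSC.2. The fibroblast markers of SSC.2 were at 0.523% of the MEF sum, and 5 of the 11 were at 1 FPKM or more. Twist1 was the highest of them at 18.8 FPKM against 50.7 in MEF, and Prrx1 the lowest at 5.47e-05 FPKM. The MASC lines lay between 0 and 0.295 FPKM (median 0.0273) for Hoxc11. They lay between 0 and 0.360 FPKM (median 0.0508) for Hoxc12. For Hoxc13 they lay between 0.192 and 0.535 FPKM (median 0.386), and all of them were below all SSC lines. Hoxc13 was also the highest Hoxc gene of the iPS lines, at 0.721 and 1.11 FPKM, and of ESC.2 at 0.783, with 0.277 in ESC.1 and 0 and 0.291 in the HSC cultures. Hoxc11 and Hoxc12 were at 0.0917 and 0 and at 0.0510 and 0.107 FPKM in the ESC lines, at 0.0217 and 0.0124 and at 0.0482 and 0.0554 in the iPS lines and at 0 and 0.594 and at 0 and 0.120 in the HSC cultures. None of the 3 passed in MASC against SSC. Their log2 differences were -0.93 ± 0.57, -1.06 ± 0.68 and -1.31 ± 0.51, with limma adjusted p of 0.264, 0.293 and 0.0801.

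SSC.2 stood apart in the Hoxa cluster too. It was the highest SSC line for 29 of the 39 members and the highest of all 17 samples for 18, and its Hoxa sum was 41.4 FPKM against 5.56, 4.12 and 7.49 in SSC.1, SSC.3 and SSC.4. Hoxa10, which acts in the female reproductive tract and the limb, read 0.117, 6.65, 0.104 and 2.44e-06 FPKM in SSC.1 to SSC.4. Hoxa11, its neighbour in position and function, read 0.192, 3.15, 0.573 and 0 FPKM, and Hoxa13, a gene of the digits and the genital tubercle, 0.0926, 2.84, 0.222 and 0.182 FPKM. The other SSC lines were thus under 1 FPKM in all 3. MASC lines lay between 2.60e-06 and 0.270 FPKM (median 0.133) for Hoxa10. They lay between 0.0525 and 0.645 FPKM (median 0.122) for Hoxa11. For Hoxa13 they lay between 0.0215 and 0.533 FPKM (median 0.0451). ESC and iPS lines stayed at or under 0.228 FPKM for each of these genes. In detail, Hoxa10, Hoxa11 and Hoxa13 had 0.108 and 0.0911, 0.190 and 0.121 and 0.138 and 0.228 FPKM in the ESC lines and 1.55e-06 and 5.81e-07, 0 and 0.0426 and 0.0608 and 0.211 in the iPS lines. HSC cultures had 0.0840 and 0.986, 0 and 0.702 and 0.0424 and 0.336 FPKM, and MEF 2.02, 2.24 and 1.10 FPKM.

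Hoxa3, needed for the thymus and the parathyroid, was the highest Hoxa gene of SSC.1, SSC.2 and SSC.4. It read 2.06, 11.2, 0.527 and 3.71 FPKM in SSC lines and lay between 0.256 and 1.76 FPKM (median 0.404) in MASC lines. ESC lines had 0.112 and 0.108, iPS lines 0.0264 and 0.114, HSC cultures 0.0653 and 1.06 and MEF 0.955 FPKM. MASC.2 and MASC.6 were above SSC.3, and the log2 difference of -1.27 ± 0.52 did not pass (limma adjusted p = 0.0973). Hoxa4 had 0.466, 5.48, 0.176 and 0.945 FPKM in SSC lines and lay between 0.0508 and 1.21 FPKM (median 0.210) in MASC lines, with 0.0658 and 0.0346 in ESC, 0.0233 and 0.187 in iPS and 0.0922 and 0.402 in HSC samples and 0.848 in MEF. SSC.2 was highest and MASC.2 second. Hoxa7 had 0.481, 2.89, 0.460 and 0.243 FPKM in SSC lines and lay between 0.0522 and 0.897 FPKM (median 0.236) in MASC lines, with 0.200 and 0.144 in ESC, 0.0177 and 0.0914 in iPS and 0.360 and 1.57 in HSC samples and 2.57 in MEF.

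Hoxa2, which patterns the branchial arches, read 0.577, 1.66, 0.182 and 0.319 FPKM in SSC lines and lay between 0.214 and 2.75 FPKM (median 0.676) in MASC lines. MASC.6 held the highest value of the 17 samples, and MASC.5 and MASC.2 reached 1.34 and 0.997 FPKM. ESC lines had 0.0832 and 0.0146, iPS lines 0.00246 and 0.0564, HSC cultures 0 and 0.490 and MEF 0.739 FPKM. Its difference of 0.19 ± 0.35 was 1 of the 4 positive ones among the 39 genes and did not pass (limma adjusted p = 0.779).

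Hoxa5, Hoxa6 and Hoxa9 had their highest levels outside the SSC lines, in HSC.2. Hoxa5, needed for the lung, read 0.274 and 5.54 FPKM in HSC.1 and HSC.2, 0.325, 2.35, 0.853 and 0.953 in SSC lines and 2.60 in MEF, and lay between 0.185 and 2.05 FPKM (median 0.494) in MASC lines. ESC lines had 0.372 and 0.123 and iPS lines 0.0215 and 0.0795 FPKM. Hoxa6 read 0.0614 and 1.44 FPKM in the HSC cultures, 0.268, 0.639, 0.313 and 0.0238 in SSC lines and 1.21 in MEF, and lay between 0.0183 and 0.812 FPKM (median 0.190) in MASC lines. ESC lines had 0.0877 and 0 and iPS lines 0 and 0.0357 FPKM. In the HSC cultures only HSC.2 was above 1 FPKM for either gene.

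Hoxd genes were low in all cultured stem cells and were a MEF group. The Hoxd sum was between 1.76 and 4.70 FPKM in SSC lines and between 0.848 and 4.65 FPKM in MASC lines, against 20.7 FPKM in MEF. Hoxd8 read 0.708, 4.87e-04, 1.51 and 1.09 FPKM in SSC lines, with SSC.3 highest and SSC.2 near 0, and lay between 2.70e-07 and 0.753 FPKM (median 0.125) in MASC lines. MEF had 6.43, ESC lines 0.179 and 0.0302, iPS lines 0.0693 and 4.80e-04 and HSC cultures 0.0163 and 2.23 FPKM. In the 1 transcript of Hoxd8 used here, out of 3, the order of SSC.2 and SSC.3 was the reverse of that in the Hoxb genes. Hoxd9 had 0.182, 1.83, 0.363 and 0.947 FPKM in SSC lines and lay between 0.137 and 0.815 FPKM (median 0.316) in MASC lines, with 0.125 and 0.0968 in ESC, 0.0825 and 0.592 in iPS and 0.00537 and 1.10 in HSC samples and 3.10 in MEF.

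Hoxd13, a gene of the digits, had 0.263, 1.08, 0.877 and 0.136 FPKM in SSC lines and lay between 0.156 and 1.69 FPKM (median 0.363) in MASC lines, highest in MASC.1 and MASC.2. ESC lines had 0.292 and 0.604, iPS lines 0.244 and 0.420, HSC cultures 0 and 0.101 and MEF 2.89 FPKM. Hoxd3 and Hoxd4, neighbours in the cervical region, were both highest in MASC.6 among the SSC and MASC lines. Hoxd3 had 0.0471, 0.0295, 0.192 and 0.105 FPKM in SSC lines and lay between 0.0701 and 1.34 FPKM (median 0.168) in MASC lines, with 0.0242 and 0.0340 in ESC, 0.00573 and 0.0197 in iPS and 0.0113 and 0.628 in HSC samples and 2.27 in MEF. Hoxd4 had 0.146, 0.287, 0.292 and 0.279 FPKM in SSC lines and lay between 0.0277 and 1.87 FPKM (median 0.174) in MASC lines, with 0.0939 and 0.0916 in ESC, 0.0467 and 0.0866 in iPS and 0.0194 and 1.31 in HSC samples and 3.62 in MEF. None of these Hoxd genes differed detectably between MASC and SSC lines. Hoxd1 was lower by 0.21 ± 0.068 in MASC (limma adjusted p = 0.0432), a difference under the required size at levels of at most 0.437 FPKM in these lines.

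The 12 calls were next read within strains and without the lines that hold many fibroblast transcripts. The 12 genes were lower in MASC within both the Oct4-GFP lines (2 lines of each) and the 129mix lines (2 MASC against 1 SSC), where no test was made. These lines were part of the fit that chose the 12 genes. Their direction was thus nearly fixed in advance and is not independent support. Whether the difference between MASC and SSC lines itself differed between these strains cannot be decided, since 129mix has 1 SSC line. The log2 difference in Oct4-GFP lines minus that in 129mix lines ranged from -1.73 (Hoxb5) to 1.54 (Hoxb2) among the 12 genes. When SSC.1, SSC.3, MASC.1 and ESC.1 were left out, a choice made after seeing the data, 12 genes were again called lower. Hoxb5 lost its call and Hoxa3 gained one. For Hoxb3, Hoxb7 and Hoxb13 every SSC line was above the MEF sample, and for Hoxb2, Hoxb4 and Hoxb8 the lines SSC.1, SSC.2 and SSC.4 were, while SSC.3 was not. For the other called genes fewer lines were above MEF. These were SSC.1 and SSC.2 for Hoxb5 and Hoxb6, SSC.2 and SSC.4 for Hoxc4, and SSC.2 alone for Hoxc9 and Hoxc10. For Hoxc8 every SSC line was below MEF. Of the markers of other cells, Wt1 was higher in every SSC line than in every MASC line, and so was Twist1 of the fibroblast list, at 12.3 to 20.2 FPKM in SSC lines and at most 7.67 in MASC lines. The part of such cells in the Hox difference was not tested. SSC.3 had the most fibroblast transcripts of the SSC lines and the lowest value of 20 of the 39 members. It was the highest SSC line for 4 members, Hoxd3, Hoxd4, Hoxd8 and Hoxd10, each of which had its highest level of all samples in MEF. It was also the only C57Bl/6J line, so that line, strain and fibroblast content cannot be told apart.

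Among MASC lines, MASC.6 was the highest for 21 of the 39 members and for 10 of the 12 called genes. Its fibroblast markers were at 1.15% of the MEF sum. MASC.1, at 15.7%, was the highest for 10 members, among them Hoxa11, Hoxa13 and 5 Hoxd genes, and the part of fibroblast RNA in this was not tested. MASC.2 was highest for 8 members. MASC.3, MASC.4 and MASC.5 were highest for none.

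**Figure D4:**
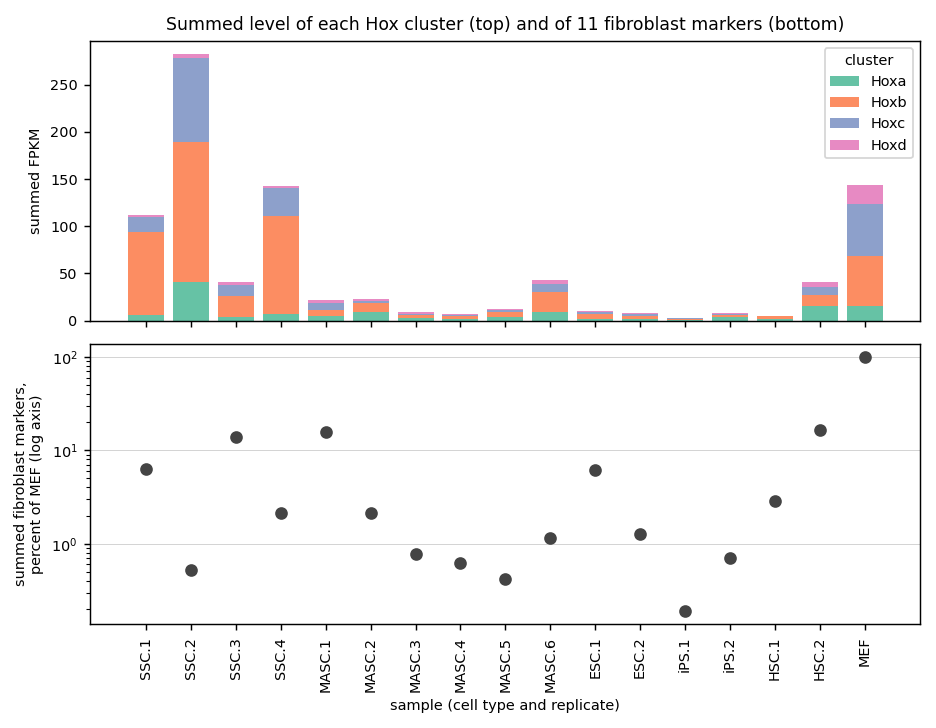
Summed FPKM of the Hox genes of each cluster in each sample (top, stacked bars) and the summed level of 11 fibroblast markers as a percent of MEF (bottom, log axis). SSC.2 has the tallest bar at 282 FPKM and a fibroblast sum of 0.523%, whereas MASC.1 and HSC.2 have fibroblast sums of 15.7% and 16.3% and Hox sums of 22.2 and 41.0 FPKM.

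ESC lines, derived from embryos and not from testis, were set against the same SSC lines. In this comparison 9 of the 39 genes were lower in ESC lines and 0 were higher, against 8.75% of all transcripts lower and 4.96% higher (limma, same call rule). They were Hoxb2, Hoxb3, Hoxb4, Hoxb6, Hoxb7, Hoxb8, Hoxb13, Hoxc4 and Hoxc9. All 15 genes with an unadjusted p under 0.05 were lower in ESC lines. Hoxb7 differed by -3.85 ± 0.58 (limma adjusted p = 0.00130), Hoxb8 by -3.41 ± 0.64 (0.00417), Hoxb2 by -3.02 ± 0.74 (0.0162) and Hoxc9 by -2.48 ± 0.38 (0.00156). Hoxb4 differed by -2.68 ± 0.62, Hoxb13 by -2.36 ± 0.53, Hoxb6 by -2.25 ± 0.54, Hoxc4 by -2.46 ± 0.66 and Hoxb3 by -1.87 ± 0.44, with limma adjusted p between 0.0105 and 0.0246. The comparisons with MASC and with ESC share the SSC lines, so they are not independent. With only 1 ESC line in the fit, without ESC.1 or without ESC.2, 3 genes remained called in either case, Hoxb7, Hoxb8 and Hoxc9.

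Between MASC and ESC lines no Hox gene was called, and 0 of the 39 had an unadjusted p under 0.05 (limma). Over all transcripts 0.00306% were called higher and 0.0153% lower, so the comparison made almost no calls at all. The median log2 difference was 0.14 over the 39 genes, against 0.0011 over all transcripts, and 34 of the 39 differences were above 0. The largest was in Hoxb2, at 1.28 ± 0.69 (limma adjusted p = 1.00).

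HSC cultures were compared with the pluripotent lines, taken as the mean of the MASC, ESC and iPS group means. Of the 39 genes, 2 were higher in HSC and 0 lower, against 10.3% of all transcripts higher and 11.2% lower (limma over all 17 samples, where the MEF sample adds nothing to the spread). Hoxa9, which keeps blood stem cells dividing and is overexpressed in many leukaemias, read 0.698 and 2.58 FPKM in HSC.1 and HSC.2. It lay between 1.69e-05 and 0.570 FPKM (median 0.184) in MASC lines and was 0.123 and 2.09e-05 in ESC lines, 1.40e-05 and 1.68e-05 in iPS lines, 6.47e-06, 1.70, 0.180 and 2.23e-05 in SSC lines and 0.806 in MEF. Both HSC cultures were above all 10 pluripotent lines. The log2 difference was 1.19 ± 0.35 (limma adjusted p = 0.0214). Without HSC.2 it was 0.65 (limma adjusted p = 0.352), and the call was lost. It was also lost with FPKM summed per gene symbol (limma adjusted p = 0.0740) and with the replicate block (limma adjusted p = 0.0615). With a term for strain the limma adjusted p was 0.218. Both HSC cultures are of a strain that no pluripotent line has, and SSC.3 is the only other sample of it. The strain term for HSC thus rests on SSC.3 against the other SSC lines and cannot separate strain from cell type.

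Hoxb4 was also called in HSC, at 1.46 ± 0.52 on the log2 scale (limma adjusted p = 0.0480). Both cultures, at 2.495 and 2.57 FPKM, were above all pluripotent lines. The adjusted p was close to the threshold and rose above it when any 1 of the 12 MASC, ESC, iPS and HSC samples was left out, so that the call was lost each time while the direction was kept. Of the 39 genes, 3 had an unadjusted p under 0.05, and 1 of them was lower in HSC.

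The 2 HSC cultures differed from each other over the whole family. HSC.2 was higher than HSC.1 for all 39 members, and 14 members in HSC.2 and 1 in HSC.1 were at 1 FPKM or more. Over all transcripts HSC.2 was also higher, with a median log2(FPKM + 1) of 0.782 against 0.340 in HSC.1. At 1 FPKM or more were 15444 transcripts in HSC.2 and 13532 in HSC.1. The share of all transcripts that were higher in HSC.2 is not given, so the count of 39 cannot be read as particular to Hox genes. The Hoxc and Hoxd sums were 0.160 and 0.0810 FPKM in HSC.1 and 7.59 and 5.91 FPKM in HSC.2. All 11 fibroblast markers were at 1 FPKM or more in HSC.2 and 2 of 11 in HSC.1, with Col1a2 at 143 and 0.340 FPKM. Fibroblast markers summed to 1210.3 FPKM in HSC.2, of which S100a4, also expressed by blood cells, gave 759. The endothelial genes Tie1 and Kdr were at 14.1 and 3.45 FPKM in HSC.2 and at 0.316 and 0.0641 in HSC.1. The part of other cell types in the HSC.2 values was not tested. Without HSC.1, 5 genes were called higher in HSC, namely Hoxa5, Hoxa6, Hoxa9, Hoxb7 and Hoxd8, and without HSC.2 none was.

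**Figure D5:**
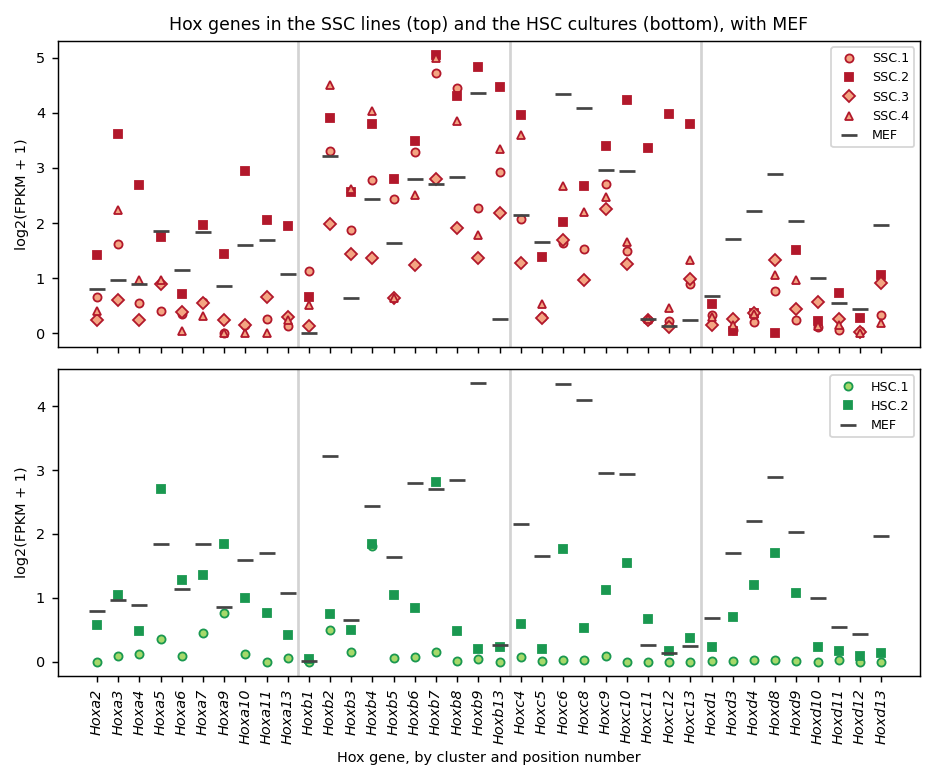
Levels of 38 Hox genes, as log2(FPKM + 1), in the 4 SSC lines (top) and the 2 HSC cultures (bottom), each with the MEF sample (black bars). SSC.2 (filled squares) leads at the posterior Hoxa and Hoxc genes, where MEF is low for Hoxc11 to Hoxc13. HSC.2 lies above HSC.1 at every gene, with 2.495 and 2.57 FPKM in HSC.1 and HSC.2 at Hoxb4.

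The MEF sample and the iPS lines made from such fibroblasts were compared by their values only, because there is 1 MEF sample. MEF was higher by a log2 difference of at least 1 for 23 of the 39 genes, and iPS lines for 0, against 12.6% and 14.8% of all transcripts. The 23 genes comprised 5 Hoxa, 7 Hoxb, 6 Hoxc and 5 Hoxd genes. The largest differences were in Hoxc6, 19.2 FPKM in MEF and 0.0148 and 0.102 in iPS.1 and iPS.2, in Hoxc8, 16.003 against 0.0321 and 0.0431, and in Hoxb9, 19.5 against 0.245 and 0.576 FPKM. The Hoxa, Hoxb, Hoxc and Hoxd sums were 15.6, 52.7, 54.7 and 20.7 FPKM in MEF. They were 0.948, 0.602, 1.00 and 0.574 FPKM in iPS.1 and 3.77, 1.76, 1.65 and 1.40 in iPS.2. Each cluster sum was thus higher in MEF, but not every gene followed. Hoxc13 was at 0.180 FPKM in MEF and at 0.721 and 1.11 in iPS.1 and iPS.2. iPS.2 was higher than iPS.1 for 36 of the 39 genes. Over all transcripts the median log2(FPKM + 1) was also higher in iPS.2, at 0.749 against 0.644 in iPS.1, and the share of all transcripts higher in iPS.2 is not given.

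Partners and regulators of the Hox proteins were read from a list of 20 genes (among them Pbx2 to Pbx4, Meis1 to Meis3, Pknox1, Pknox2, Cdx1, Cdx2, Cdx4, Gsx1, Gsx2, Pdx1, Evx1, Evx2, Kmt2a, Men1 and Psip1). In MASC against SSC lines 2 of the 20 were lower and 0 higher, a share close to the 9.60% of all transcripts. Kmt2a, the trithorax methyltransferase that maintains Hox expression, read 13.54, 11.2, 13.2 and 13.2 FPKM in SSC.1 to SSC.4 and 4.89, 5.27, 4.45, 5.33, 4.40 and 4.24 in MASC.1 to MASC.6. The groups did not overlap, and the log2 difference was -1.26 ± 0.082 (limma adjusted p = 4.67e-06). Pbx2, a cofactor of Hox proteins, read 73.0, 77.3, 50.5 and 94.4 FPKM in SSC lines and 23.8, 22.8, 23.9, 22.1, 25.4 and 29.5 in MASC lines. It differed by -1.52 ± 0.16 (limma adjusted p = 6.93e-05). In SSC.3, where most Hoxb levels were lowest, Kmt2a was as high as in the other SSC lines, and Pbx2 was the lowest of the 4. The part of either gene in the Hoxb levels was not tested.

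In HSC against pluripotent lines 2 of the 20 were higher and 1 lower, against 10.3% and 11.2% of all transcripts, so the share that was higher is that of the background. Meis1, a cofactor that acts with Hoxa9 in blood cells, read 12.3 and 12.4 FPKM in HSC.1 and HSC.2 and at most 4.61 FPKM (MASC.6) in the pluripotent lines. The log2 difference was 2.61 ± 0.35 (limma adjusted p = 1.25e-04). Meis3 read 12.1 and 6.33 FPKM and differed by 2.00 ± 0.49 (limma adjusted p = 0.00705). Psip1, which tethers the Kmt2a complex to chromatin, was lower, at 13.3 and 17.3 FPKM, by 1.81 ± 0.14 on the log2 scale (limma adjusted p = 1.45e-06). Meis1 was as high in HSC.1 as in HSC.2. Within the MASC lines MASC.6, the line with the highest Hox sum, also had the highest Meis1, Meis2 and Meis3, at 4.61, 2.87 and 7.72 FPKM. A link between these levels was not tested.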

How the data were processed

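RNA from 17 cultures was sequenced with an Illumina TruSeq RNA kit on a HiSeq instrument. The authors aligned reads to mm9 with TopHat (TopHat2 2.0.11 in the processing notes), left out duplicate reads and reads with more than 1 location, and ran Cufflinks (version not given in the sources used here) with upper-quartile and GC normalization. They deposited 1 table per sample with an FPKM for each RefSeq transcript, its confidence bounds, and a coverage signal in reads per base. Read counts were not used here, so depth is known only through the coverage. Excluding reads with several locations lowers values where sequences repeat. Strandedness is not stated.

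Of the rows, 601 repeat a transcript at a further locus and were left out. The authors' FPKM was used as log2(FPKM + 1), with a pseudocount of 1, with no further scaling or filter. Groups were fitted in R 4.3.3 by limma 3.58.1 (lmFit, eBayes without trend) as described with the results, and p-values were adjusted over all 32661 transcripts. The study required a log2 difference of 2, which is an alternative here. On simulated data for MASC against SSC, 184 of 200 transcripts changed by 3 on the log2 scale were recovered with 5 false calls. The noise was normal, and the changed transcripts had a mean log2(FPKM + 1) above 1. Calls here start at a difference of 1 and many Hox levels are lower, so the recovery of such changes is not known. Single genes were also tested with an exact permutation test over lines. Alternatives were a pseudocount of 0.1, quantile normalization, a filter that asks for 1 FPKM in 2 samples or more, other thresholds, a moderated fit with trend, replicate and strain terms, FPKM summed per gene symbol, another set of samples and leaving out each line.

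The Hox genes, partner genes and marker lists were chosen with earlier results of these data known. Of Hox genes, values in every sample are given for those at 1 FPKM or more in any sample other than MEF, MASC lines being given by their lowest, median and highest value. Partner genes are named where called. The values of 1 Hox gene and 1 partner gene are not reported here. The endothelial genes and the fit without lines above 5% of the MEF fibroblast sum were added after seeing the data. Col1a1 was left out of the fibroblast markers because it has no estimate in MEF. Sequences are from RefSeq (GRCm38.p6) and were placed on mm9 by exact match.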

Additional observations from a re-analysis of the deposited data

Results flagged for a closer look

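Within the 4 SSC and the 6 MASC lines, the highest and the lowest line of each gene were set against the others with Dixon's 95% criterion on log2(FPKM + 1). It marked 22 of 76 gene and group pairs (28.9%). The rate of about 1 in 20 by chance holds for normally distributed values, which was not tested here. Several marked values lie under 1 FPKM, and the share marked over all transcripts is not given. The 28.9% therefore cannot be read as an excess in Hox genes. The genes of a cluster are neighbours and share their lines, so the 22 marked pairs are not independent.

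SSC.2 gave 9 of the 22 and was the highest line in each. Its levels were 2.89 FPKM for Hoxa7, 1.70 for Hoxa9, 6.65 for Hoxa10 and 2.84 for Hoxa13. In the Hoxc cluster it had 17.8 FPKM of Hoxc10, 9.24 of Hoxc11, 14.7 of Hoxc12 and 12.8 of Hoxc13, and in the Hoxd cluster 0.206 FPKM of Hoxd12. The next SSC line of these genes had at most 2.14 FPKM. The other SSC values were Hoxb7 in SSC.3, the lowest at 5.96 FPKM against 25.2 in the next, and Hoxd4 in SSC.1, the lowest at 0.146 FPKM.

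MASC.1, the MASC line with the most fibroblast transcripts, was the highest for 6 genes. These were Hoxa11 at 0.645 FPKM, Hoxa13 at 0.533, Hoxc11 at 0.295, Hoxd8 at 0.753, Hoxd10 at 0.383 and Hoxd12 at 0.0856, all under 1 FPKM. MASC.2 was the highest for Hoxa4 at 1.21 and Hoxb13 at 1.23 FPKM. MASC.6 was the highest for Hoxb8 at 1.51, Hoxd3 at 1.34 and Hoxd4 at 1.87 FPKM. Whether the difference between MASC and SSC lines was of unequal size in Oct4-GFP and 129mix lines cannot be decided with 1 SSC line of 129mix.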

How the results depend on the processing

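For MASC against SSC lines the count of 12 lower genes was 13 with a pseudocount of 0.1, 15 with the filter on low values, 9 with quantile normalization, and between 8 and 13 when 1 line was left out. No member was called higher under any of these. Hoxb4, Hoxb6, Hoxb7, Hoxb8, Hoxb13 and Hoxc9 passed under every alternative tried, the replicate block and a log2 difference of at least 2 among them. Hoxb3 lost its call only at a log2 difference of at least 2, and Hoxc4 only with the replicate block. In all, 7 genes passed a log2 difference of at least 2. For ESC against SSC lines the count of 9 ranged from 3 (without ESC.1 or ESC.2) to 12 when 1 line was left out. For HSC against pluripotent lines the 2 higher genes became 1 with FPKM summed per gene symbol (Hoxb4) and 1 without the lines rich in fibroblast transcripts (Hoxb4). They became 0 at a log2 difference of at least 2, and 0 to 5 when 1 sample was left out. With a strain term there were 3 (Hoxb4, Hoxb6 and Hoxb8, without Hoxa9). For the strain of the HSC cultures that term rests on SSC.3 alone, so it cannot separate strain from cell type. The 0 lower genes became 1 with a pseudocount of 0.1 and 0 to 1 when 1 sample was left out. The cause was not tested.

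Deviations of same-numbered SSC and MASC lines from their group means had correlations of both signs (r = 0.19, -0.23, -0.22 and 0.14). SSC.3 and MASC.3 differ in strain. For the other numbers these values cannot decide whether the lines share an origin. With the replicate number as a replicate block, 8 genes were called lower in MASC and 7 in ESC against SSC lines, 0 between MASC and ESC lines and 0 in HSC against pluripotent lines.

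For MEF against iPS lines 23 genes became 12 at a log2 difference of at least 2. The filter left 0, by construction, since it asks for 1 FPKM in at least 2 of 3 samples and only 1 is MEF. For iPS above MEF, 0 became 2 with a pseudocount of 0.1 and 0 to 1 when 1 iPS line was left out. Detection at 1 FPKM or more gave 12 genes in SSC, 0 in MASC, 0 in ESC, 0 in iPS, 1 in HSC and 24 in MEF samples, against 31, 23, 25, 10, 8 and 37 by the confidence bound. Both ask for every sample of a type and are stricter where a type has more samples. Levels under 1 FPKM rest on few reads, and 1 MEF sample and 2 samples of ESC, iPS and HSC limit what those groups can show.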

Other observations

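Noncoding RNAs of the Hox clusters were read by name. Hoxa11os, the antisense partner of Hoxa11, was at 4.21 FPKM in SSC.2, 3.17 in MEF and 1.36 in HSC.2, and under 1 FPKM in the other 14 samples. Hoxa11 was at 3.15, 2.24 and 0.702 FPKM in the same samples. The loci overlap and the strand setting is not stated, so the reads of the 2 genes cannot be told apart. Hotair, a long noncoding RNA of the Hoxc cluster between Hoxc11 and Hoxc12, was at 0.822 FPKM in SSC.2, the line with high Hoxc11 and Hoxc12, and at most 0.0497 FPKM elsewhere. The Mir196a-1 hairpin of the Hoxb cluster, 102 bases long, was listed at 167 FPKM in SSC.2 and at most 39.1 FPKM in the other samples. For so short a transcript few reads give a large FPKM, and mature miRNAs are not measured by these libraries. Mir196b was listed at 22.5 FPKM in HSC.2 and at 0 in the other 16 samples. Mir10a, Mir10b and Mir196a-2 were listed at 0 in all 17.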
